A study of Mus musculus with 8 samples.

Results

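The immediate early and growth factor feedback genes are the genes that cells switch on within minutes to hours of a signal, together with those whose products shut the signal down again. They were examined in Min6 cells, a line derived from a mouse insulinoma that keeps traits of pancreatic beta cells, as a list of 56 genes chosen by symbol, and all 56 were found among the 23100 genes of the deposited count table. The list holds 10 AP-1 and small Maf factors, 4 EGR factors, 4 KLF factors, 3 NR4A orphan nuclear receptors, 9 other immediate early genes, 12 feedback genes of the MAP kinase pathway, 5 cytokine and STAT feedback genes, and 9 NF-kB factors and targets. The rule for choosing them uses no measured value, but the list was drawn up with earlier results of these data known. Its shares beside those of all tested genes are therefore description only.

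All cells were grown in medium with 15% serum and transfected with a plasmid by a lipid reagent, and RNA was taken 16 h later. The control group of 4 libraries received pRK5-NLSeGFP, which expresses a green fluorescent protein directed to the nucleus, and the Zac1 group of 4 libraries received pRK5-Zac1. Zac1, a transcription factor with zinc fingers, is the product of Plagl1, an imprinted gene, and the study asked which genes respond to it. In both groups the libraries are numbered 1, 2, 3 and 5, and the design text of the series describes 4 biological replicates. The labels name no growth factor or cytokine treatment, the share of cells that took up a plasmid is not given in the sources used here, and each value is an average over all cells of a culture.

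In a resting cell, growth factor receptors, calcium and stress kinases act through the MAP kinases on factors such as SRF, the ternary complex factors and CREB, which already sit at the promoters of Fos, Egr1 and their relatives. Transcription of these genes needs no new protein and is short-lived. Among the products are DUSP phosphatases, Sprouty and Spred proteins that damp the MAP kinases, SOCS proteins that damp the JAK kinases, and I-kappa-B proteins that retain NF-kB. In beta cells, glucose, cyclic AMP and cytokines are known inducers of many of them.

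Promoter sequences of 41 of the 56 members, in 51 windows, were found in a RefSeq table of the mouse build GRCm38.p6 that runs from 250 bases before to 50 bases after each transcription start. The stretches shown belong to Lif, which edgeR called higher, and to Atf3 and Nfkb2, which DESeq2 called and edgeR did not. Klf10, the other member that edgeR called higher, had no window among these 51. Each is the 250 bases before the start, written 5′ to 3′ on the gene's own strand. Capitals mark letters that match a searched motif on either strand, and for Nfkb2 the first of its windows is shown. The Lif stretch is chr11:4257318-4257567 on the plus strand, the Atf3 stretch is chr1:191183334-191183583 on the minus strand and the Nfkb2 stretch is chr19:46304487-46304736 on the plus strand.
Lif: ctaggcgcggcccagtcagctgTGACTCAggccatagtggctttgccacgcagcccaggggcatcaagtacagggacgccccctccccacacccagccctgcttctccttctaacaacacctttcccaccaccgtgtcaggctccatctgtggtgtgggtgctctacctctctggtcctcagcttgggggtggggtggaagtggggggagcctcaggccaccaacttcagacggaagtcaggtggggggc
Atf3: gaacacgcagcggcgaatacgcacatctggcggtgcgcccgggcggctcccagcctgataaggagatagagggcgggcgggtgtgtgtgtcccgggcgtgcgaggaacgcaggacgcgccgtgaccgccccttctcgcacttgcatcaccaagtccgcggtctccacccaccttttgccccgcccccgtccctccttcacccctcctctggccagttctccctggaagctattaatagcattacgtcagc
Nfkb2: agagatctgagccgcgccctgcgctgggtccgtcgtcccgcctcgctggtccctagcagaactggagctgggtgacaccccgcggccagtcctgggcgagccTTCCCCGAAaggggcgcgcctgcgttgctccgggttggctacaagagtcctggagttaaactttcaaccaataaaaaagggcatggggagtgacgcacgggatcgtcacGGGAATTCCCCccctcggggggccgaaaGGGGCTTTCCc
In the Lif stretch the capitals are an AP-1 motif, TGANTCA, starting at position -228 from the start. In the Nfkb2 stretch they are a STAT motif, TTCNNNGAA, at position -148, an overlapping pair of kappa-B sites at positions -39 and -38, and a kappa-B site at position -11. The Atf3 window held none of the 7 motifs searched.

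The same search was run over all 32851 windows of the table. A kappa-B site stood in 14 of the 51 member windows (27.5%) and in 4.51% of all windows. The binding motif of EGR factors, GCGNGGGCG, stood in 13 member windows (25.5%) and in 5.55% of all, and the CArG box, the site of SRF, in 6 (11.8%) and 1.63%. For the CRE motif, TGACGTCA, the counts were 3 windows (5.88%) against 1.79%, for the STAT motif 6 (11.8%) against 8.3%, and for the AP-1 motif 4 (7.84%) against 7.81%. The palindrome GGGGCCCC, a described Zac1 binding motif, stood in 1 member window (1.96%), that of Ier5, and in 1.08% of all. A gene with several windows counts more than once here, as Nfkb2 does for the kappa-B site. The 6 windows with a CArG box belong to Dusp5, Egr2 and Zfp36 only, and most are overlapping windows of Egr2. A match of letters is no evidence of binding.

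The libraries held 30.5 to 42.4 M (mega) counts each, and levels are counts per M counts of a library with TMM scaling (CPM). Plagl1 stood at 78.4, 67.7, 79.5 and 85.4 CPM in control libraries 1, 2, 3 and 5 and at 5788, 4249, 4119 and 4370 CPM in the Zac1 libraries, a log2 change of 5.90 ± 0.13 (SE; edgeR adjusted p = 1.45e-09). There was no overlap between the groups (two-sided exact permutation p = 0.0286, the smallest that 70 assignments allow), and plasmid and endogenous reads cannot be told apart in these counts. The 12 beta cell markers summed to 59548 to 76824 CPM in the controls and 62191 to 70212 CPM in the Zac1 libraries. Of these 12, edgeR called 0 at an adjusted p of 0.05, with 0 at an unadjusted p under 0.05, and DESeq2 and limma-voom also called 0. Markers of other cells were low: the 6 acinar and duct markers summed to at most 0.527 CPM, the 6 fibroblast markers to at most 1.96 CPM with Lum at 0 counts, the 4 endothelial markers to at most 1.84 CPM with Cdh5 at 0 counts, and the 6 leukocyte markers, mostly Cd68, to 5.19 to 7.76 CPM. The hormone gene Gcg of alpha cells was present at a mean of 1432 CPM in the controls and 1557 CPM in the Zac1 libraries.

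Differences between the groups were small across the list. Of its 56 members, 47 were abundant enough to test. At an edgeR adjusted p under 0.05, 2 of these were higher in the Zac1 cells than in the controls. They were the transcription factor gene Klf10 (1.24-fold) and the cytokine gene Lif (1.94-fold). These 2 are 4.26% of the tested members, beside 2.15% of all 14331 tested genes called higher. No member was called lower by edgeR, DESeq2 or limma-voom, and 0 lay lower at an unadjusted p under 0.05, beside 0.0349% of all tested genes called lower and 1.93% lower at that unadjusted p. In bulk RNA, a gene that is higher in each cell and a gene that is on in more cells cannot be told apart. No library of untransfected cells is in the series, so a rise with Zac1 and a fall with the fluorescent protein cannot be told apart either.

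Small positive differences were spread over the list. An unadjusted p under 0.05 with a higher level in the Zac1 group was found for 14 of the 47 tested members (29.8%), beside 5.65% of all tested genes. The fitted log2 change lay above 0 in 35 of 47 (74.5%), beside 45.8% of all tested genes, and its median was 0.13, beside -0.01 over all tested genes. In 44 of the 47 the log2 change was under 0.5 in size, and the range ran from -0.10 for Spry1 to 0.96 for Lif. For 5 members (10.6%), Atf3, Klf10, Etv4, Lif and Nfkb1, every Zac1 library lay above every control library, beside 4.39% of all tested genes, and for 0 every Zac1 library lay below, beside 1.4%. With library totals in place of TMM scaling the log2 change was above 0 in 39 of the 47, and with median-ratio size factors in 36.

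**Figure D1:**
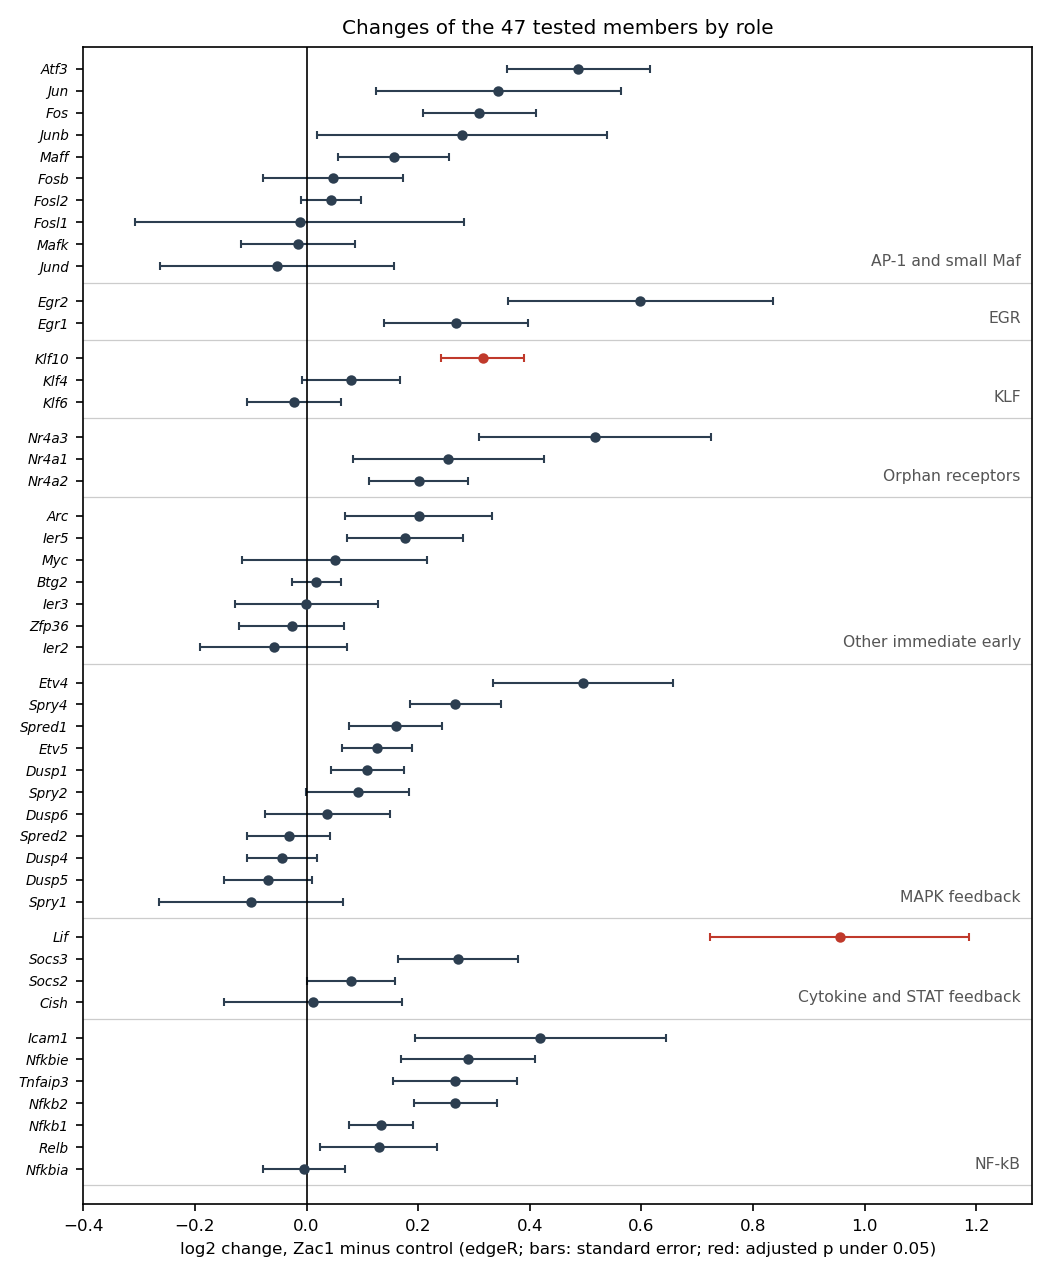
Log2 change (Zac1 minus control, edgeR) of each of the 47 tested members, on the horizontal axis, with 1 row per gene in blocks by role and bars of 1 SE. Of the points 44 lie within 0.5 of 0 and 35 lie above 0, and only Klf10 and Lif passed the adjusted threshold of 0.05.

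Among the KLF factors, zinc finger proteins that bind GC-rich promoters, Klf10 encodes a repressor first described as induced by TGF-beta. It stood at 20.1, 18.4, 22.1 and 21.6 CPM in control libraries 1, 2, 3 and 5 and at 25.6, 24.0, 24.5 and 28.0 CPM in Zac1 libraries 1, 2, 3 and 5. The lowest Zac1 library lay above the highest control. Means were 20.5 ± 1.67 and 25.5 ± 1.78 CPM (SD, n = 4 each), a log2 change of 0.32 ± 0.07 (SE; edgeR adjusted p = 0.0385). The call was lost when control 1, control 2, Zac1 1, Zac1 2, Zac1 3 or Zac1 5 was left out, with edgeR adjusted p between 0.0342 and 0.133 over the 8 omissions, while the log2 change stayed between 0.27 and 0.36. Klf4, a pluripotency and epithelial factor, showed 9.65, 11.6, 10.2 and 10.5 CPM in the controls and 10.5, 10.1, 11.9 and 11.7 CPM in the Zac1 libraries, with overlapping groups and a log2 change of 0.08 ± 0.09 (SE; edgeR adjusted p = 0.954). Klf6, a further growth-related KLF factor, had a log2 change of -0.02 ± 0.08, so that the KLF group held 1 called member of 3 tested.

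Lif encodes leukemia inhibitory factor, a secreted cytokine of the interleukin-6 family that signals through LIFR, GP130 and STAT3. Its level was 0.497, 0.597, 0.345 and 0.491 CPM in control libraries 1, 2, 3 and 5 and 0.861, 0.851, 1.04 and 1.02 CPM in the Zac1 libraries. These levels rest on 64 counts in all controls and 152 in all Zac1 libraries, and the groups were well apart. Means of 0.483 ± 0.104 and 0.941 ± 0.0989 CPM (SD, n = 4 each) gave a log2 change of 0.96 ± 0.23 (SE; edgeR adjusted p = 0.0471). Leaving out any of the 8 libraries ended the call, with edgeR adjusted p from 0.0630 to 0.166 and the log2 change from 0.83 to 1.08. Neither DESeq2 nor limma-voom called it, with adjusted p of 0.0834 and 0.0522. The range was 0.0411 to 0.166 over the 14 alternatives without the replicate number in the model. With that number as a block, edgeR called Lif (adjusted p = 0.0299). Per kilobase of exon, Lif was among the least abundant tested members (0.119 CPM per kb in the controls).

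**Figure D2:**
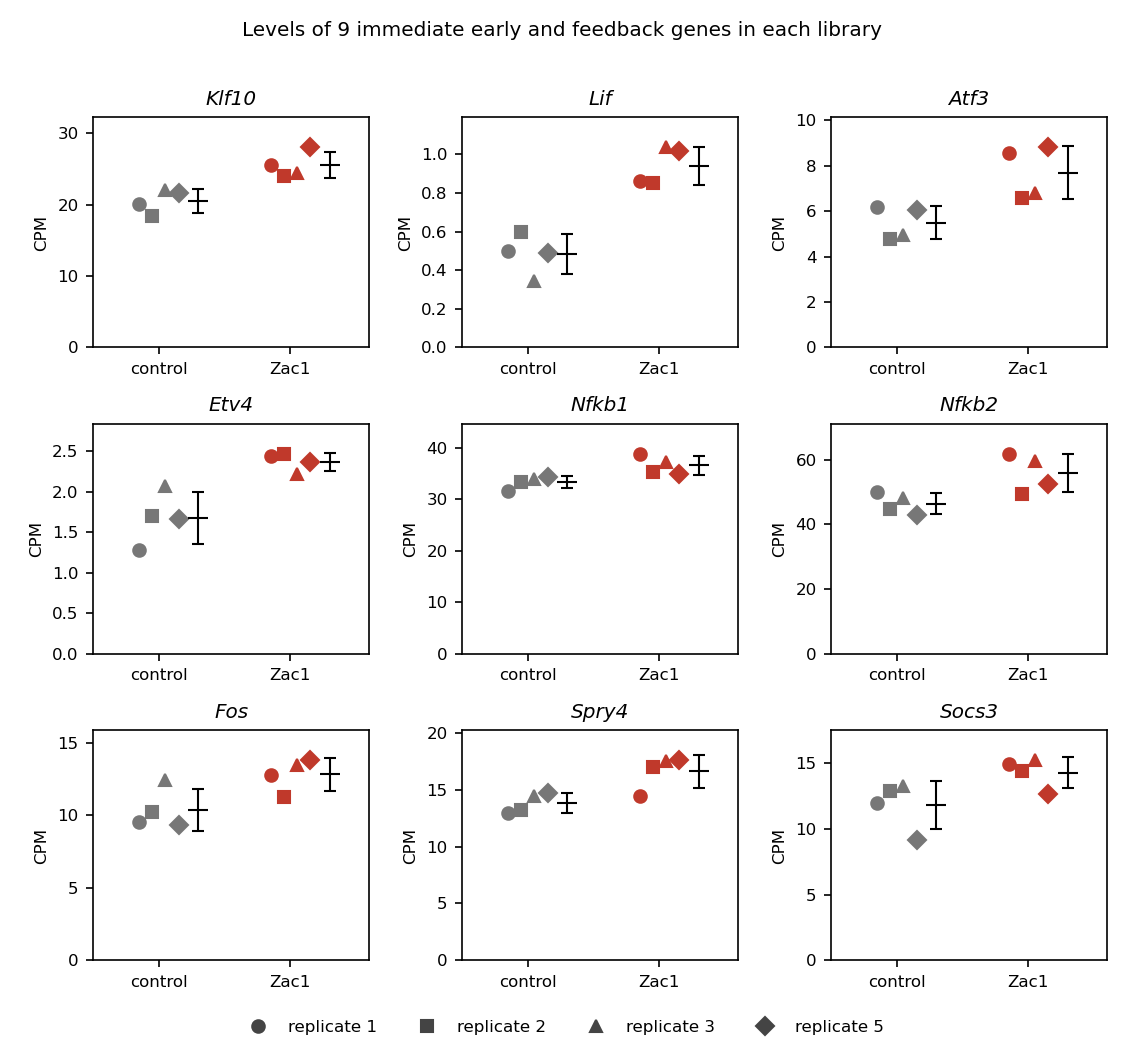
Level in CPM (vertical axes, each from 0 on its own scale) of 9 members in each of the 4 control and 4 Zac1 libraries, with symbols for the replicate number and bars for each group's mean and SD. In Klf10, Lif, Atf3, Etv4 and Nfkb1 the Zac1 libraries all lie above the controls.

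The other cytokine and STAT feedback genes encode SOCS proteins, which bind cytokine receptors or JAK kinases and end their signal. Socs3, the readout of STAT3, stood at 12.0, 12.9, 13.3 and 9.16 CPM in the controls and at 14.9, 14.4, 15.2 and 12.6 CPM in the Zac1 libraries. Zac1 5 fell within the range of the controls and the other Zac1 libraries lay above them. The log2 change was 0.27 ± 0.11 (SE; edgeR adjusted p = 0.475). The edgeR fit with the replicate number as a block called Socs3 (adjusted p = 0.0177). Socs2 and Cish, which are STAT5 targets, had log2 changes of 0.08 ± 0.08 and 0.01 ± 0.16. In this group 4 members were tested, and edgeR called 1 higher without the block and 2 with it. All 4 had a log2 change above 0, with a median of 0.18.

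AP-1 is a dimer of Fos, Jun and ATF family proteins, and small Maf proteins are their relatives. Atf3, a stress-induced member of the family, stood at 6.17, 4.78, 4.96 and 6.05 CPM in the controls and at 8.56, 6.55, 6.80 and 8.80 CPM in the Zac1 libraries. No Zac1 library reached down to the controls. Means were 5.49 ± 0.724 and 7.68 ± 1.17 CPM (SD, n = 4 each), a 1.40-fold difference with a log2 change of 0.49 ± 0.13 (SE) that missed the threshold (edgeR adjusted p = 0.0771, range 0.0209 to 0.254 over 14 alternatives). DESeq2, edgeR without a low-count filter and edgeR with library totals each called it. So did edgeR with the replicate number as a block, which is not among those 14 (adjusted p = 0.000792).

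Fos itself, the founding immediate early gene, stood at 9.51, 10.2, 12.4 and 9.29 CPM in the controls and at 12.8, 11.3, 13.4 and 13.8 CPM in the Zac1 libraries. Control 3 lay above Zac1 2, so the groups overlapped by this library. The log2 change was 0.31 ± 0.10 (SE; edgeR adjusted p = 0.244), and without control 3 it was 0.41 with an adjusted p of 0.0436. The range was 0.0436 to 0.540 over the 14 alternatives without a replicate block. With that block, edgeR called Fos (adjusted p = 0.0182). Jun, the usual partner of Fos, varied widely in the Zac1 group. It stood at 22.4, 17.5, 17.9 and 17.0 CPM in the controls and at 34.0, 16.4, 24.3 and 19.9 CPM in the Zac1 libraries, and is given here after its values were seen. Zac1 1 was the highest and Zac1 2 the lowest of all 8, and the log2 change was 0.34 ± 0.22 (SE; edgeR adjusted p = 0.861).

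Fosl2 encodes the Fos relative FRA2, which was among the steadiest members: 49.8, 52.7, 51.2 and 52.9 CPM in the controls and 49.9, 51.4, 56.0 and 55.8 CPM in the Zac1 libraries. The groups overlapped, and the log2 change was 0.04 ± 0.05 (SE; edgeR adjusted p = 0.960). Fosl1, which encodes FRA1, was near the limit of the test, with 0.351, 0.512, 0.314 and 0.524 CPM in the controls and 0.406, 0.312, 0.410 and 0.544 CPM in the Zac1 libraries. Its groups covered the same range, with a log2 change of -0.01 ± 0.30 (SE). In the GRCm38 annotation Fosl1 shares 1163 exon bases with Ccdc85b on the opposite strand. The strand setting of the counting is not given in the sources used here, so the level of Fosl1 is uncertain to that extent. The remaining 5 members, Fosb, Junb, Jund, Maff and Mafk, had log2 changes between -0.05 for Jund and 0.28 for Junb. For Junb and Jund the SE was 0.26 and 0.21, with Zac1 5 the lowest and Zac1 1 the highest of all libraries in both genes. Of the 10 AP-1 and small Maf genes, edgeR called 0, with 2 higher and 0 lower at an unadjusted p under 0.05, while DESeq2 called 1 (Atf3) and limma-voom 0, and 7 had a log2 change above 0.

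EGR proteins are zinc finger factors and the classical readout of the MAP kinase ERK. Egr1 stood at 5.15, 5.03, 6.03 and 4.12 CPM in the controls and at 5.12, 6.95, 6.36 and 6.10 CPM in the Zac1 libraries. Zac1 1 lay inside the range of the controls and the others above it. The log2 change was 0.27 ± 0.13 (SE; edgeR adjusted p = 0.696). Egr2, of which the controls held 65 counts in all, stood at 0.439, 0.426, 0.471 and 0.654 CPM in the controls and at 0.813, 0.653, 0.723 and 0.804 CPM in the Zac1 libraries. Only control 5 reached into the Zac1 group, level with Zac1 2. The difference was 1.51-fold, a log2 change of 0.60 ± 0.24 (SE; edgeR adjusted p = 0.478). Of the pair tested, edgeR, DESeq2 and limma-voom called 0, with 1 higher and 0 lower at an unadjusted edgeR p under 0.05.

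The NR4A receptors are orphan nuclear receptors without a known physiological ligand, induced by cyclic AMP and calcium. Nr4a3 stood at 1.23, 1.11, 1.73 and 1.80 CPM in the controls and at 1.96, 1.56, 2.12 and 2.67 CPM in the Zac1 libraries. Zac1 2 lay below controls 3 and 5, and the log2 change was 0.52 ± 0.21 (SE; edgeR adjusted p = 0.490). Nr4a2 stood at 20.3, 20.8, 22.1 and 23.0 CPM in the controls and at 24.8, 21.8, 22.8 and 29.6 CPM in the Zac1 libraries. Zac1 2 and Zac1 3 lay within the range of the controls, and the log2 change was 0.20 ± 0.09 (SE; edgeR adjusted p = 0.595). Nr4a1 had a log2 change of 0.25 ± 0.17. All 3 had a log2 change above 0, edgeR, DESeq2 and limma-voom called 0, and at an unadjusted edgeR p under 0.05 there were 2 higher and 0 lower.

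Among the other immediate early genes, none of the 7 tested had an unadjusted p under 0.05 in edgeR, DESeq2 or limma-voom, and 4 had a log2 change above 0 with a median of 0.02. Btg2, an antiproliferative gene, was the most abundant member per kilobase of exon (50.0 CPM per kb in the controls). It stood at 139, 137, 142 and 131 CPM in the controls and at 143, 136, 136 and 141 CPM in the Zac1 libraries. Those levels interleaved, and the log2 change was 0.02 ± 0.04 (SE; edgeR adjusted p = 0.980). Ier5, a regulator of heat shock factor, stood at 16.0, 16.6, 17.2 and 14.1 CPM in the controls and at 21.3, 19.0, 17.5 and 14.7 CPM in the Zac1 libraries. Libraries 5 were the lowest of both groups, and the log2 change was 0.18 ± 0.10 (SE; edgeR adjusted p = 0.806). Arc, which in neurons encodes a synaptic protein, stood at 4.94, 4.83, 5.34 and 3.80 CPM in the controls and at 6.55, 5.05, 5.25 and 4.90 CPM in the Zac1 libraries. Only Zac1 1 lay clear of the controls, and the log2 change was 0.20 ± 0.13 (SE; edgeR adjusted p = 0.852). Log2 changes of Ier2, Ier3, Myc and Zfp36, the last of which encodes an RNA-destabilising protein, lay between -0.06 and 0.05.

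Feedback genes of the MAP kinase pathway encode phosphatases (Dusp), Ras pathway inhibitors (Spry, Spred) and the ETS factors Etv4 and Etv5, which are induced by FGF signals. Spry4, an inhibitor of Ras activation by receptors, stood at 13.0, 13.2, 14.4 and 14.7 CPM in the controls and at 14.5, 16.9, 17.5 and 17.6 CPM in the Zac1 libraries. Only Zac1 1 fell among the controls. The log2 change was 0.27 ± 0.08 (SE; edgeR adjusted p = 0.175). The edgeR fit with the replicate number as a block called Spry4 (adjusted p = 0.0140). Etv4 stood at 1.29, 1.71, 2.07 and 1.67 CPM in the controls and at 2.44, 2.47, 2.22 and 2.37 CPM in the Zac1 libraries. The Zac1 libraries were close together and all above the controls, with a log2 change of 0.50 ± 0.16 (SE; edgeR adjusted p = 0.239). Its paralog Etv5 stood at 37.9, 37.0, 39.9 and 37.8 CPM in the controls and at 45.1, 37.1, 43.1 and 41.1 CPM in the Zac1 libraries. Zac1 2 lay with the controls, and the log2 change was 0.13 ± 0.06 (SE; edgeR adjusted p = 0.718).

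Dusp6 encodes the phosphatase that acts on ERK in the cytoplasm and is a usual readout of ERK activity. It stood at 8.81, 9.75, 9.36 and 7.46 CPM in the controls and at 10.3, 8.91, 9.57 and 7.55 CPM in the Zac1 libraries. The groups covered nearly the same range, and the log2 change was 0.04 ± 0.11 (SE; edgeR adjusted p = 0.984), with a 95% interval from -0.20 to 0.28. Dusp1, Dusp4 and Dusp5, nuclear phosphatases of the same family, had log2 changes of 0.11, -0.04 and -0.07. Spry1, Spry2, Spred1 and Spred2 lay at -0.10, 0.09, 0.16 and -0.03. Of the 11 feedback genes tested, edgeR without the block, DESeq2 and limma-voom called 0, and edgeR with the block called 1 (Spry4). At an unadjusted edgeR p under 0.05 there were 2 higher and 0 lower, and 7 had a log2 change above 0.

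The NF-kB genes hold subunits of the factor, its inhibitors and targets of it. Nfkb2 encodes the p100 precursor of the non-canonical pathway. It stood at 49.9, 44.7, 48.1 and 42.8 CPM in the controls and at 61.7, 49.4, 59.6 and 52.4 CPM in the Zac1 libraries. Only control 1 and Zac1 2 met, and means were 46.4 ± 3.22 and 55.8 ± 5.83 CPM (SD, n = 4 each). The difference was 1.20-fold, a log2 change of 0.27 ± 0.07 (SE) that missed the threshold (edgeR adjusted p = 0.110, range 0.0355 to 0.327 over 14 alternatives). DESeq2, edgeR without a low-count filter and edgeR without Zac1 2 (adjusted p = 0.0450) each called it. So did edgeR with the replicate number as a block, which is not among those 14 (adjusted p = 0.000224). Nfkb2 shares exon bases with Psd on the opposite strand in the GRCm38 annotation, and the strand setting of the counting is not given in the sources used here, so its level is uncertain to that extent.

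Nfkb1, which encodes the p105 precursor, stood at 31.7, 33.3, 34.0 and 34.4 CPM in the controls and at 38.8, 35.2, 37.3 and 34.9 CPM in the Zac1 libraries. The groups did not overlap, though Zac1 5 and control 5 nearly met, and the log2 change was 0.13 ± 0.06 (SE; edgeR adjusted p = 0.572). Nfkbie encodes the inhibitor I-kappa-B epsilon and stood at 3.48, 3.92, 3.42 and 3.40 CPM in the controls and at 4.38, 3.72, 4.89 and 4.40 CPM in the Zac1 libraries. Zac1 2 lay below control 2, and the log2 change was 0.29 ± 0.12 (SE; edgeR adjusted p = 0.528). Nfkbia encodes I-kappa-B alpha, the quickest NF-kB target, and stood at 18.9, 20.4, 19.4 and 17.4 CPM in the controls and at 19.3, 17.2, 20.5 and 18.9 CPM in the Zac1 libraries. These ranges coincided, with a log2 change of -0.0048 ± 0.07 (SE; edgeR adjusted p = 0.997) and a 95% interval from -0.16 to 0.15. The adhesion molecule gene Icam1 stood at 1.29, 1.36, 1.35 and 0.785 CPM in the controls and at 2.22, 1.50, 1.33 and 1.37 CPM in the Zac1 libraries, with 1 library apart in each group, control 5 low and Zac1 1 high. Its log2 change was 0.42 ± 0.23 (SE; edgeR adjusted p = 0.764). Tnfaip3, which encodes the inhibitory enzyme A20, and Relb, a subunit, had log2 changes of 0.27 ± 0.11 and 0.13 ± 0.11. Of the 7 tested NF-kB genes, edgeR and limma-voom called 0 and DESeq2 called 1 (Nfkb2), with 4 higher and 0 lower at an unadjusted edgeR p under 0.05, and 6 had a log2 change above 0 with a median of 0.27.

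The interferon and stress lists, drawn up as the responses that transfected DNA can evoke, are given here beside the NF-kB and STAT genes. Of 17 tested interferon response genes, edgeR called 0, with 1 higher and 0 lower at an unadjusted p under 0.05, DESeq2 called 1 and limma-voom 0, and the median log2 change was 0.01. That gene was Cxcl10, a chemokine gene induced by interferon and NF-kB, at 0.731, 0.796, 0.911 and 2.23 CPM in the controls and 7.17, 2.92, 3.95 and 8.99 CPM in the Zac1 libraries. Its groups did not overlap, libraries 5 were the highest of each group, and the log2 change was 2.33 ± 0.49 (SE; edgeR adjusted p = 0.0699). With the replicate number as a block, edgeR called Cxcl10 (adjusted p = 2.10e-09). The list summed to 250 to 259 CPM in the controls and 243 to 274 CPM in the Zac1 libraries. Of 12 stress genes edgeR called 1 higher, Gadd45b, a growth arrest and NF-kB target gene, at 2.19, 2.59, 2.61 and 2.26 CPM in the controls and 4.52, 3.55, 3.90 and 2.89 CPM in the Zac1 libraries (log2 change 0.62 ± 0.15, SE; edgeR adjusted p = 0.0492). DESeq2 also called 1 and limma-voom 0, and edgeR with the replicate block called 1 higher and 1 lower. At an unadjusted edgeR p under 0.05 there were 2 stress genes higher and 1 lower, Gadd45a (log2 change -0.18 ± 0.07, SE; edgeR adjusted p = 0.481). The log2 change was below 0 in 8 of the 12, with a median of -0.05. The heat shock gene Hspa1a had the lowest, -2.02 ± 0.90 (SE; edgeR adjusted p = 0.702), with 7.34 CPM in control 1 and 0.938 to 1.05 CPM in the other controls. The part of these responses in the values of the NF-kB and STAT genes was not tested.

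Upstream of the members, 78 genes of the pathways were counted, of which 76 were tested: receptors, Ras and MAP kinases, JNK and p38 kinases, SRF, CREB and MEF2 factors, the JAK and STAT genes, and the NF-kB signalling genes. Of these, edgeR, DESeq2 and limma-voom called 0. At an unadjusted edgeR p under 0.05 there were 4 higher and 0 lower, beside 5.65% and 1.93% of all tested genes. The median log2 change was 0.02 and the range -0.21 to 0.23. A log2 change above 0 was found in 57.9% of them, beside 45.8% of all tested genes. In 2 (2.63%) every Zac1 library lay above every control, beside 4.39% of all tested genes. Their mRNA levels say nothing of kinase activity or of the location of the factors.

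A further 9 members fell below the low-count filter, and their values rest on few reads. The dual-specificity phosphatase gene Dusp2 had 1, 3, 1 and 2 counts in control libraries 1, 2, 3 and 5 and 13, 4, 7 and 7 counts in the Zac1 libraries. The groups did not overlap, and the ratio of the depth-scaled sums was 3.63 (95% interval 1.57 to 9.76, counting error only). Its adjusted p in edgeR without the filter was 0.274. Egr3 had 0 counts in all controls and 0, 2, 2 and 8 counts in those with Zac1. Set against 3 counts summed over the controls, the floor used for a count of 0, its ratio was 3.28 (adjusted p = 0.275 in edgeR without the filter). That ratio leaves out the counting error of the Zac1 sum. Egr4 had 2 counts in the controls and 15 in the Zac1 libraries, a ratio of 6.14 with an interval of 1.43 to 55.4 (adjusted p = 0.473 in edgeR without the filter). All 3 genes, which growth factors can induce, were thus near silence in both groups.

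Of the other untested members, the matricellular gene Ctgf had 0 and 5 counts in the controls and the Zac1 libraries. Against the same floor its ratio was 1.37, with the counting error of those 5 counts left out (adjusted p = 0.657 in edgeR without the filter). Cyr61, of the same family, had 15 and 34 counts, a ratio of 1.86 with an interval of 0.985 to 3.67. Zac1 1 alone held 17 of those 34 counts. Klf2, Socs1 and the chemokine gene Ccl2 had 21 and 17, 21 and 19, and 22 and 26 counts. Each of these intervals included equality, with ratios of 0.663, 0.741 and 0.968. Cxcl1, a chemokine gene, had 0 and 2 counts, below the floor in both groups.

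Levels of the members per kilobase of exon, from exon lengths of the GRCm38 annotation, spanned a wide range in the controls. After Btg2 at 50.0 CPM per kb came Nfkbia at 12.1, Dusp4 at 11.8, Dusp1 at 11.6 and Nfkb2 at 11.0 CPM per kb. At least 5 CPM per kb was reached by 17 of the 47 tested members. Among the low ones were Egr2 at 0.156 and Lif at 0.119 CPM per kb. Spread between the control libraries was widest for Fosl1, Nr4a3 and Icam1, with coefficients of variation of 25.4%, 23.8% and 23.1%, and narrowest for Fosl2, Btg2 and Etv5 at 2.80%, 3.16% and 3.23%. The median over the tested members was 9.14%, beside 7.44% over all tested genes.

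**Figure D3:**
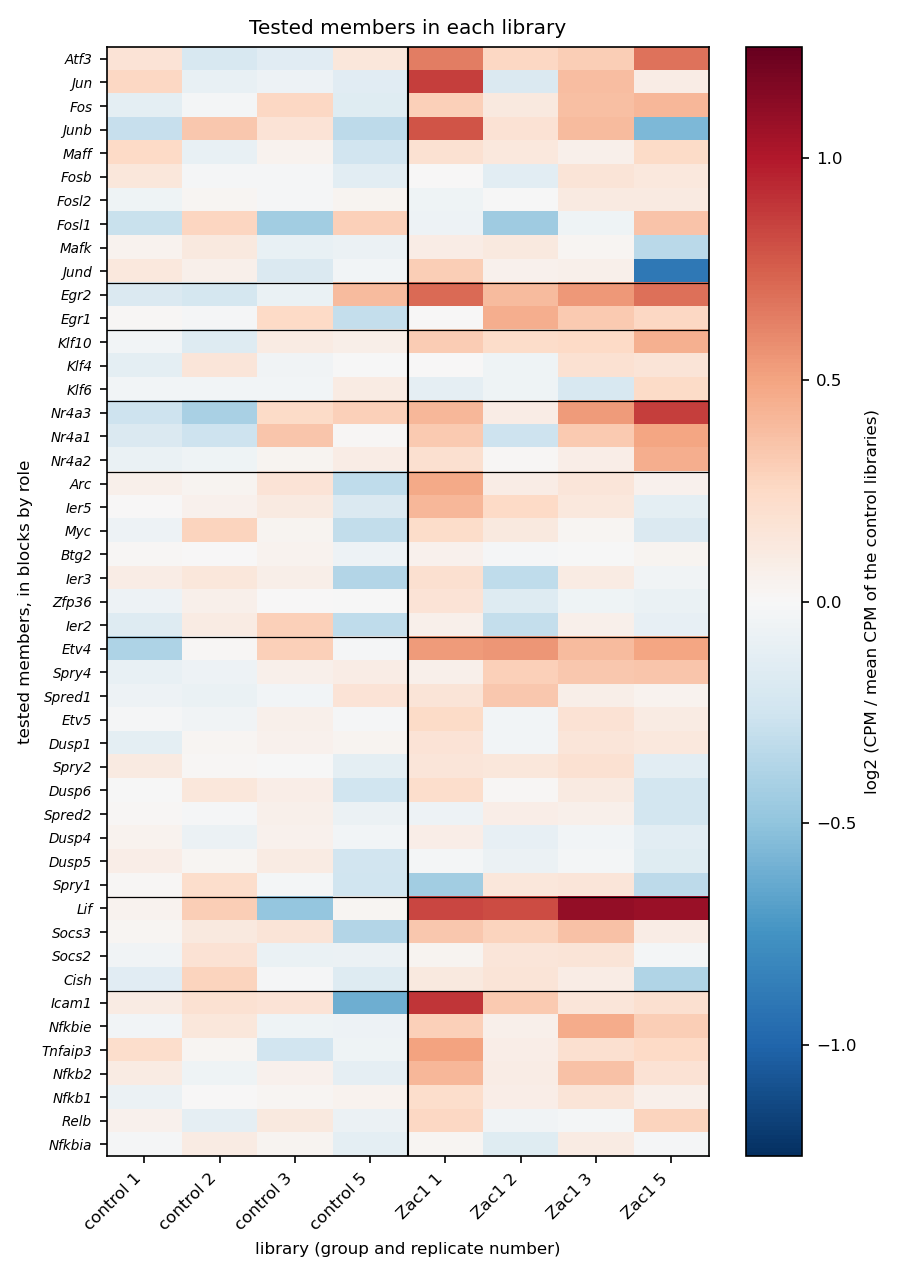
Log2 level of each tested member in each of the 8 libraries, relative to the mean of that gene over the 4 control libraries, in blocks by role (colour scale from blue, below that mean, to red, above). The values run from -0.897 to 1.10, the Zac1 1 column is red for many genes, and the control 5 column is blue for many.

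For each tested member, the libraries with its highest and lowest level were also counted. The shares by group rest on the same values as the log2 changes above and are no separate result. The highest of the 8 levels was in a Zac1 library for 40 of the 47 tested members (85.1%), beside 48.0% of all tested genes, and the lowest in a control for 33 (70.2%), beside 47.4%. Zac1 1 alone held the highest level of 17 members (36.2%), beside 11.6% of all tested genes, and control 5 the lowest level of 15 (31.9%), beside 14.0%. Control 5 held the highest level of 0 members. Zac1 1 was also the library with the most Plagl1, and control 5 the library with the fewest counts; the part of either in the members' values was not tested. Without Zac1 1, the median log2 change of the tested members was 0.09 and 34 of the 47 lay above 0. Without control 5, it was 0.12 and 34 lay above 0.

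**Figure D4:**
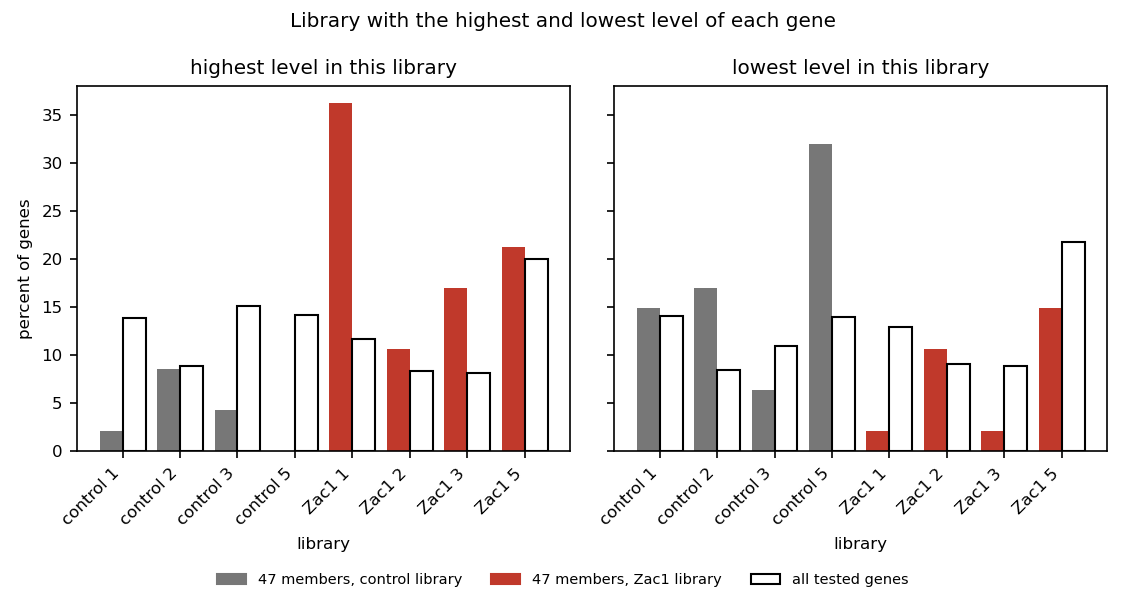
Percent of genes whose highest (left) or lowest (right) level fell in each library, for the 47 tested members (filled bars, grey for control and red for Zac1) and all 14331 tested genes (open bars). The bar of the highest levels is tallest for Zac1 1 at 36.2%, and that of the lowest levels for control 5 at 31.9%.

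How firmly any member can be called differed by setting. The 14 alternative settings without a replicate block were other tools, scalings and filters, and libraries left out. In these, Klf10 passed in 8, Lif, Atf3 and Nfkb2 in 3 each, and Fos in 1. With the replicate number as a block, edgeR called 7: Klf10, Lif, Atf3, Nfkb2, Fos, Spry4 (adjusted p = 0.0140) and Socs3 (adjusted p = 0.0177). Calls also became more frequent over the whole table. That fit called 4.38% of all tested genes in either direction, beside 2.18% without the block. In 5 of the 14 no member passed, with control 1, control 2, Zac1 1, Zac1 3 or Zac1 5 left out, and in none was a member called lower.

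**Figure D5:**
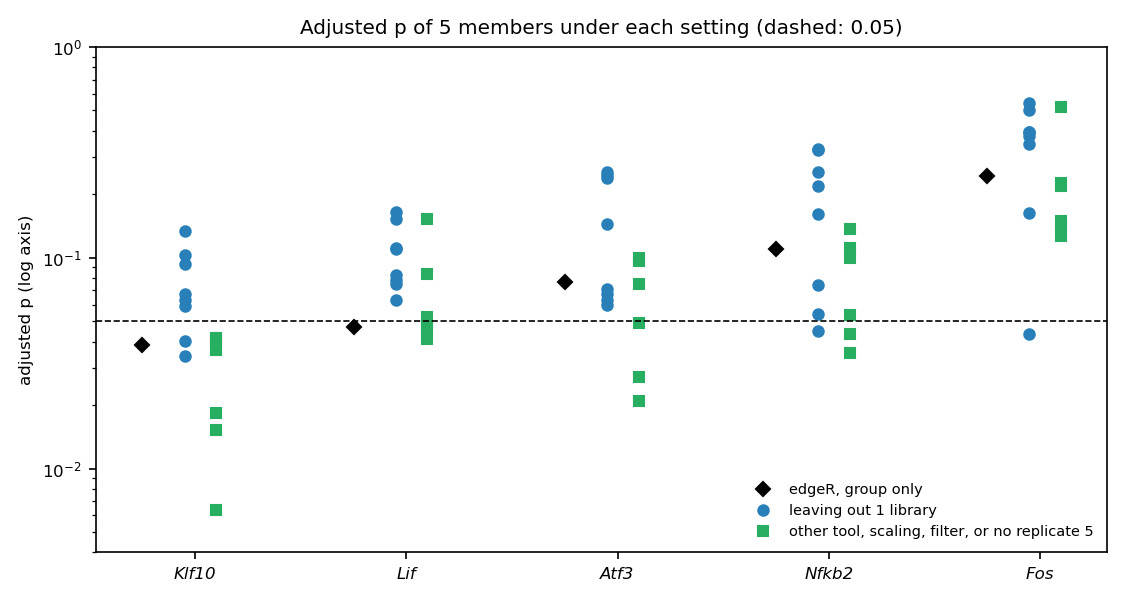
Adjusted p (log axis) of the 5 members that passed in at least 1 of these settings, for the edgeR comparison of the groups (diamonds), each library left out (circles) and the other tools, scalings, filters and the omission of both libraries numbered 5 (squares). The dashed line is 0.05, and points lie on both sides of it for each of the 5 genes.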

How the data were processed

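Per the labels' protocols, mRNA of 8 Min6 cultures was made into stranded libraries. The authors deposited gene counts as whole numbers, with no normalization. bcl2fastq 2.17, FastQC, TopHat2 2.1.1, Bowtie2 2.2.8, HTSeq 0.6.1p1 and the mouse build mm9 are named in the submitters' processing notes. Neither the annotation nor the strand setting of the counting is given in the sources used here. Whether reads of genes that overlap on opposite strands were kept apart is therefore not known. In the GRCm38 annotation, 9 of the 47 tested members have such an overlap. They are Fosl1, Jund, Mafk, Zfp36, Dusp5, Spry1, Cish, Nfkb2 and Icam1, and their levels are uncertain to that extent. The longest overlaps are those of Fosl1 (1163 exon bases) and Jund (877).

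From these counts, 14331 of 23100 genes passed edgeR's filterByExpr (minimum count 10). edgeR 4.0.16 in R 4.3.3 was run with TMM scaling and the robust quasi-likelihood F test on a model with the group only, with Benjamini-Hochberg adjustment over all tested genes and a threshold of 0.05. SEs were derived from the log2 change and its F statistic. Levels are CPM on TMM-scaled totals. Total counts per library lay between 30.5 and 42.4 M (mega). The floor used for a count of 0 was 3 counts summed over all control libraries. In the shallowest library alone, 3 counts correspond to 0.0982 CPM, which was not the floor of the ratios. The 95% ratio intervals cover counting error only, and a ratio to the floor covers that of the controls only. The reads carry no molecular identifiers and are not independent molecules.

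Alternatives were DESeq2 1.42.0, limma-voom 3.58.1, median-ratio size factors, library totals, no filter, the replicate number as a block, each library left out and both libraries numbered 5 left out. The steps were tested on simulated data. Exon lengths and overlaps came from the GRCm38 annotation, promoters from RefSeq. No sample column was left unused.

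The members, the other gene lists and the tests were chosen with earlier results of these data known. Values in every library are given for members called in edgeR with or without the block, members without overlap between the groups, the pair with the smallest p in each role, Fos, Egr1, Dusp6, Socs3 and Nfkbia, and the 3 most and 3 least variable members in the controls.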

Additional observations from a re-analysis of the deposited data

Results flagged for a closer look

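Each tested member was checked for a library far from the other 3 of its group, by the gap to the nearest library over the group's range. This was met in 8 of 94 groups of 4 libraries (8.51%), where chance alone gives about 1 in 20. Of the 8, 4 concern control 5: Klf6 at 36.2 CPM, above 32.9 to 33.0 CPM in the other controls, Spred1 at 17.4 CPM, above 14.7 to 15.1 CPM, Ier3 at 6.87 CPM, below 9.33 to 9.81 CPM, and Icam1 at 0.785 CPM, below 1.29 to 1.36 CPM. In control 2, Socs2 stood at 18.3 CPM, above 15.2 to 15.7 CPM, and Nfkbie at 3.92 CPM, above 3.40 to 3.48 CPM. Jun stood at 22.4 CPM in control 1, above 17.0 to 17.9 CPM in the other controls. The only such library of the Zac1 group was Zac1 5, with Cish at 2.01 CPM, below 2.77 to 2.92 CPM. None of these 8 genes passed the adjusted threshold.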

How the results depend on the processing

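The count of 2 called members moved to 1 with limma-voom, 4 without a low-count filter, and 1 without both libraries numbered 5. Leaving out 1 library at a time gave 0 to 2 called members. Over all genes, 313 were called, and 262 to 362 with 1 library left out. With the replicate block, 7 members were called (Fos, Atf3, Klf10, Spry4, Lif, Socs3 and Nfkb2) and 628 genes in all, 4.38% of those tested. Same-numbered libraries had correlated deviations from their group means of 0.048 to 0.292, other pairs -0.277 to 0.0788, and 7 of 8 libraries correlated best with their own number. The correlation of the libraries numbered 2 lay below 0.1, and no label says what the number marks, so the libraries were treated as sharing only a number. No called member changed sign under any alternative, and 34 to 40 of the 47 tested members had a log2 change above 0 in the 14 alternatives other than the block (35 in the reported comparison), with medians of 0.09 to 0.15. The cause of these differences was not tested. Counts limit Lif, Egr2, Fosl1 and the 9 untested members most.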
